A study of Mus musculus with 6 samples.

Results

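The insulin-like growth factor (IGF) axis was described through 9 genes chosen by name: the ligand gene Igf1, the receptor genes Igf1r and Igf2r, and the binding protein genes Igfbp2, Igfbp3, Igfbp4, Igfbp5, Igfbp6 and Igfbp7. All 9 were found among the 54532 genes of the table. RNA had been sequenced from mouse bone marrow-derived macrophages (BMDMs), called monocytes in the study's methods and taken from young adult C57BL/6 mice, after co-culture with ID8, an ovarian cancer cell line of female C57BL/6 origin. Before the co-culture, the ID8 cells of 3 libraries were exposed to cisplatin (40 µM), a DNA-crosslinking platinum compound, and the ID8 cells of the other 3 to phosphate-buffered saline (PBS). Both groups thus held ID8 cells, and no library of BMDMs alone was analysed here. The libraries also held transcripts of other cells, so a difference between the groups cannot be assigned to the macrophages alone. The co-culture time and ratio and the origin of the replicates are not given in the sources used here, so the p-values measure the spread between these libraries.

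IGF1 and IGF2 are small secreted proteins related to insulin. They signal through IGF1R, a receptor tyrosine kinase that feeds the PI3K and AKT kinases, while IGF2R takes up IGF2 for breakdown and carries enzymes tagged with mannose 6-phosphate to the lysosome. The IGF-binding proteins hold the ligands outside the cell, prolonging their life in the circulation and limiting their access to the receptor, and proteases that cut the binding proteins release them. Tissue macrophages are known as a local source of IGF1 during repair.

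In the libraries from co-culture with cisplatin-pretreated ID8 cells, Igfbp7 was 8.60-fold and Igfbp6 4.77-fold lower than in those with PBS-treated ID8 cells, whereas Igfbp4 was 4.41-fold higher. Both receptor genes were lower by less, Igf1r 1.81-fold and Igf2r 1.35-fold. Igf1 and Igfbp3 lay near or below 1 FPKM, a unit of fragments scaled to gene length and library depth, and Igfbp2 and Igfbp5 were at or near 0. Genes with at least 1 FPKM in at least 3 libraries were tested, which kept 5 of the 9, and each of these 5 exceeded 1 FPKM in all 6 libraries. Of the 5, Igfbp4 was called higher and Igfbp6 and Igfbp7 lower, where a call needed both an adjusted p under 0.05 and an absolute log2 change of 1 or more (limma on log2(FPKM + 1)). Of all 13441 genes tested, 15.9% were called, 4.67% higher and 11.3% lower. All 5 passed the adjusted p alone, as did 68.0% of all tested genes (32.9% higher and 35.1% lower), and in all 5 the groups did not overlap, as in 72.4% of tested genes.

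The libraries were of similar depth, with 15776238 to 17924686 reads recovered from the FPKM values. Pearson's r on log2(FPKM + 1) was 0.984 to 0.989 within groups and 0.871 to 0.877 between them. All 10 macrophage and monocyte markers were detected and higher with cisplatin (4 called, of which Mertk passed the filter through its cisplatin values alone). Their summed level was 1530 to 1551 FPKM with PBS and 4037 to 4182 FPKM with cisplatin. Most of this sum was the lysozyme gene Lyz2, with means of 1161 and 3459 FPKM (log2 fold change 1.57, limma adjusted p = 1.14e-07). The median log2 fold change of the list was 0.90. The libraries also held transcripts of other cells. Of 12 ID8, epithelial and mesothelial markers, 9 were tested and 8 were lower with cisplatin, 6 of them called, while Cdh1, the E-cadherin gene, was higher (log2 fold change 0.60, limma adjusted p = 0.00238). Their summed level was 1065 to 1142 FPKM with PBS and 219 to 228 FPKM with cisplatin, and Krt19, a keratin of simple epithelia, went from 588 ± 28.8 to 51.1 ± 3.80 FPKM (SD, n = 3 each). No marker of this list was at 0 in every library. All 4 Y-linked genes tested had higher values with cisplatin (summed level 41.6 to 42.8 against 19.5 to 22.7 FPKM), with Eif2s3y at 10.7 ± 1.28 and 17.8 ± 0.27 FPKM and Ddx3y, called in the log2(FPKM + 1) fit, at 8.10 ± 0.52 and 19.2 ± 0.66 FPKM with PBS and cisplatin, and Xist, the RNA of the inactive X chromosome, fell from 42.7 ± 5.35 to 7.79 ± 0.19 FPKM (SD, n = 3 each). In such bulk RNA, fewer cells of a type and less RNA per cell cannot be told apart.

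**Figure D1:**
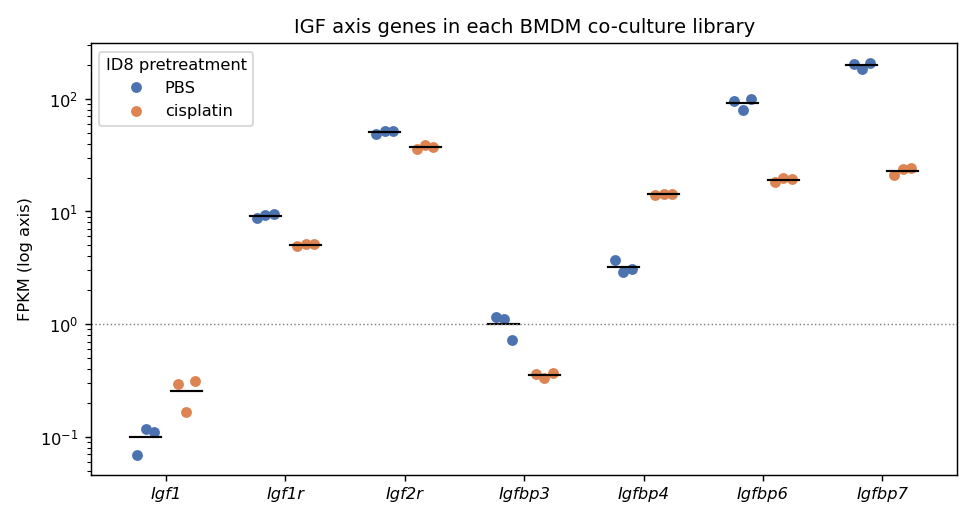
FPKM on a log axis of 7 of the 9 genes in each library (points, 3 for each group) with group means (black lines). The dotted line marks 1 FPKM, and Igfbp2 and Igfbp5, which are at or near 0, are left out. Igfbp7 lay between 185 and 208 FPKM with PBS and between 20.96 and 24.5 FPKM with cisplatin, while Igfbp4 moved from at most 3.71 to at least 13.98 FPKM.

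The ligands were scarce. Igf1 (ENSMUSG00000020053, chromosome 10, 87858265 to 87937042, GRCm38), the ligand of IGF1R, had 12, 18 and 17 reads in the PBS libraries and 49, 27 and 51 in the cisplatin libraries. These correspond to 0.0685, 0.117 and 0.111 FPKM against 0.291, 0.166 and 0.312 FPKM. All 3 cisplatin libraries lay above all 3 PBS libraries, and the fold between the group means was 2.60. At these levels a test on log2(FPKM + 1) has little room, and without the filter Igf1 did not pass it (log2 fold change 0.19, adjusted p = 0.0644). A fit of the recovered reads with limma voom, chosen after the data were seen, covered genes with at least 10 reads in at least 3 libraries and gave a log2 fold change of 1.44 (95% confidence interval 0.67 to 2.21, adjusted p = 0.00184). In that fit 26.5% of 15798 genes were called. The log2 fold change of Igf1 ranged from 1.19 to 1.72 when each library was left out in turn. The antisense gene Igf1os overlaps Igf1 and had at most 0.14 FPKM. Igf2, the other ligand gene, was listed at 0 in all 6 libraries.

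Of the receptors, Igf2r (ENSMUSG00000023830, chromosome 17, 12682406 to 12769664) was the more abundant per length. It stood at 48.3, 52.1 and 51.7 FPKM with PBS and at 36.2, 38.96 and 37.6 FPKM with cisplatin. Every cisplatin library was below every PBS library, with a log2 fold change of -0.42 (95% confidence interval -0.53 to -0.31, limma adjusted p = 0.000166), short of the fold change threshold. Igf1r (ENSMUSG00000005533, chromosome 7, 67952827 to 68233668) stood at 8.82, 9.31 and 9.42 FPKM with PBS and at 4.91, 5.18 and 5.16 FPKM with cisplatin. Its log2 fold change of -0.74 (95% confidence interval -0.86 to -0.62, limma adjusted p = 1.56e-05) also fell short of the threshold. When libraries were scaled to the Y-linked genes, both receptor genes passed it, Igf1r with a log2 fold change of -1.61 and Igf2r with -1.40. The ratio of Igf2r to Igf1r within a library was 5.52 ± 0.064 with PBS and 7.40 ± 0.11 with cisplatin (SD, n = 3 each), with no overlap between groups. The confidence intervals of the log2 fold changes of Igf1r and Igf2r did not overlap.

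Igf2r shares 28354 bases with Airn, the antisense non-coding RNA that runs through the imprinted Igf2r locus. Airn, chosen after its values were seen, had 2.75, 3.53 and 3.53 FPKM with PBS and 0.556, 0.423 and 0.471 FPKM with cisplatin. It passed the filter through its PBS values alone, so no test of it is given. Whether reads were counted by strand is not stated, so reads in the shared stretch may fall to either gene.

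Igfbp7 and Igfbp6 were the most abundant binding protein genes. Igfbp7 (ENSMUSG00000036256, chromosome 5, 77349240 to 77408041) encodes a secreted protein of matrix and vessels that binds IGFs weakly. It had 203, 185 and 208 FPKM with PBS and 20.96, 23.7 and 24.5 FPKM with cisplatin. No library of either group came near the other group, and the log2 fold change was -3.05 (SE 0.071, limma adjusted p = 1.42e-07), the largest fall of the 5 tested members and number 75 among falls of all tested genes. It overlaps Polr2b by 85 bases and the antisense gene Gm34648 by 7085. Gm34648 had only 4, 2 and 2 reads with PBS (0.477 ± 0.17 FPKM, SD, n = 3). It was listed at 0 with cisplatin, which allows up to 3 reads in each library. With PBS, 98.8% of the tested genes had a lower mean FPKM than Igfbp7, and with cisplatin 81.9%.

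Igfbp6 (ENSMUSG00000023046, chromosome 15, 102144362 to 102149511) encodes a binding protein that prefers IGF2. It had 95.1, 80.1 and 99.3 FPKM with PBS and 18.1, 19.9 and 19.4 FPKM with cisplatin. Again the groups lay far apart, with a log2 fold change of -2.19 (SE 0.083, limma adjusted p = 1.02e-06). The ratio of Igfbp7 to Igfbp6 within a library was 2.18 ± 0.11 with PBS and 1.203 ± 0.054 with cisplatin (SD, n = 3 each), again without overlap. The 95% confidence interval of the log2 fold change was -3.22 to -2.88 for Igfbp7 and -2.39 to -1.99 for Igfbp6. Of the 9 tested ID8, epithelial and mesothelial markers 8 were lower as well, Krt19, the most abundant, by 11.5-fold, and Cdh1 was higher. Their part in these falls was not tested. In its single-cell data of ID8 tumours, the study labelled tumour cells by Igfbp6 and Igfbp5, among other genes. Here Igfbp5 had 1 read in the PBS libraries together and 3 in the cisplatin libraries. The cells of origin of the Igfbp6 RNA were not tested.

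Igfbp4 (ENSMUSG00000017493, chromosome 11, 99041244 to 99054392), whose product is cut by the protease PAPP-A, went the other way. It had 3.71, 2.91 and 3.10 FPKM with PBS and 13.98, 14.4 and 14.4 FPKM with cisplatin. The cisplatin libraries lay close together and all exceeded the PBS libraries, with a log2 fold change of 1.85 (SE 0.076, limma adjusted p = 1.49e-06), the 66th largest rise of all tested genes. When libraries were scaled to the Y-linked genes instead, the median log2 fold change over the tested genes became -0.83, and that of Igfbp4 was 0.998, short of the threshold. In the same libraries 10 of 10 macrophage, 7 of 8 granulocyte, 4 of 4 lymphocyte and 4 of 4 Y-linked markers tested were higher at the adjusted p alone, and their part in the rise of Igfbp4 was not tested.

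**Figure D2:**
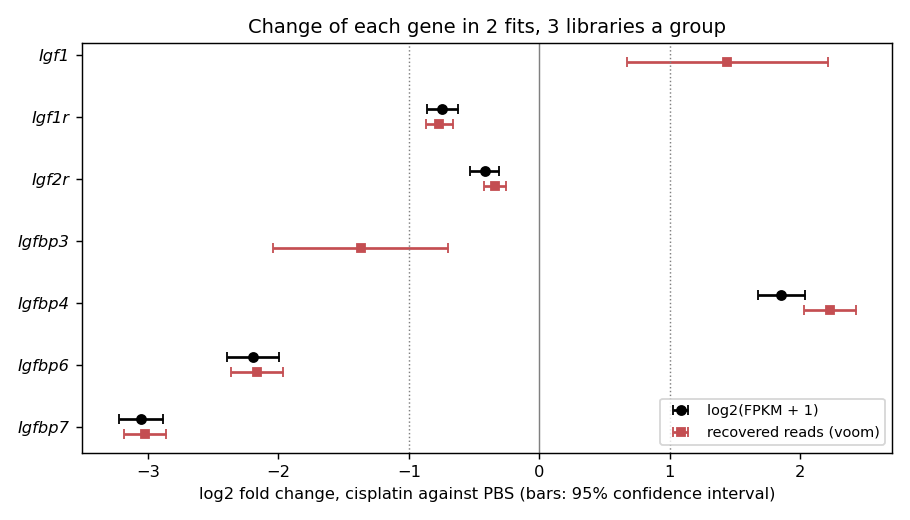
Log2 fold change, cisplatin against PBS, with 95% confidence intervals, from log2(FPKM + 1) (black circles, 5 tested genes) and from limma voom on recovered reads (red squares, 7 genes). Dotted lines mark a log2 fold change of 1 in either direction. Igf1r and Igf2r lay between -1 and 0 in both fits, and the intervals of Igf1 and Igfbp3, which rest on few reads, were the widest.

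Igfbp3 (ENSMUSG00000020427, chromosome 11, 7206086 to 7213923), the main IGF carrier of serum, had 1.16, 1.11 and 0.721 FPKM with PBS and 0.357, 0.331 and 0.368 FPKM with cisplatin. These rest on 64, 54 and 35 reads against 19, 17 and 19. The PBS libraries were all higher, but only 2 reached 1 FPKM, so Igfbp3 was not tested. Without the filter its log2 fold change was -0.55 (limma adjusted p = 0.0184), and in the voom fit, chosen after the data were seen, it was -1.37 (95% confidence interval -2.04 to -0.70, adjusted p = 0.000850, from -1.58 to -1.23 with each library left out). Igfbp5 (chromosome 1, 72857932 to 72874884), a matrix-bound carrier, had 1 read in the PBS libraries together and 3 in the cisplatin libraries. Igfbp2 (chromosome 1, 72824503 to 72852474) had no read in any library, which allows up to 3 reads or 0.0918 to 0.105 FPKM in each, counting error only. Igfbp2 and Igfbp5 are neighbours, 5457 bases apart on opposite strands, and were both at or near 0. The pair Igfbp1 and Igfbp3, 3539 bases apart on chromosome 11, was split, with Igfbp1 listed at 0 in every library.

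The make-up of the binding protein transcripts differed between the groups. The summed FPKM of Igfbp2 to Igfbp7 was 303, 269 and 311 with PBS and 53.4, 58.4 and 58.8 with cisplatin, 5.17-fold lower between the group means. Igfbp7 made up 67.5% ± 1.01 of the sum with PBS and 40.5% ± 1.27 with cisplatin (SD, n = 3 each). The share of Igfbp4 went from 1.10% ± 0.12 to 25.1% ± 0.88, while that of Igfbp6 was 31.0% ± 1.08 and 33.7% ± 0.56 (SD, n = 3 each). None of these 3 shares overlapped between groups, and they were not tested. The order of the genes by FPKM also differed. With PBS it ran Igfbp7, Igfbp6, Igf2r, Igf1r, Igfbp4, Igfbp3, Igf1. With cisplatin it ran Igf2r, Igfbp7, Igfbp6, Igfbp4, Igf1r, Igfbp3, Igf1. Within each group neighbours in these orders did not overlap between libraries, and only Igfbp5 and Igfbp2, which closed both, could not be separated.

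**Figure D3:**
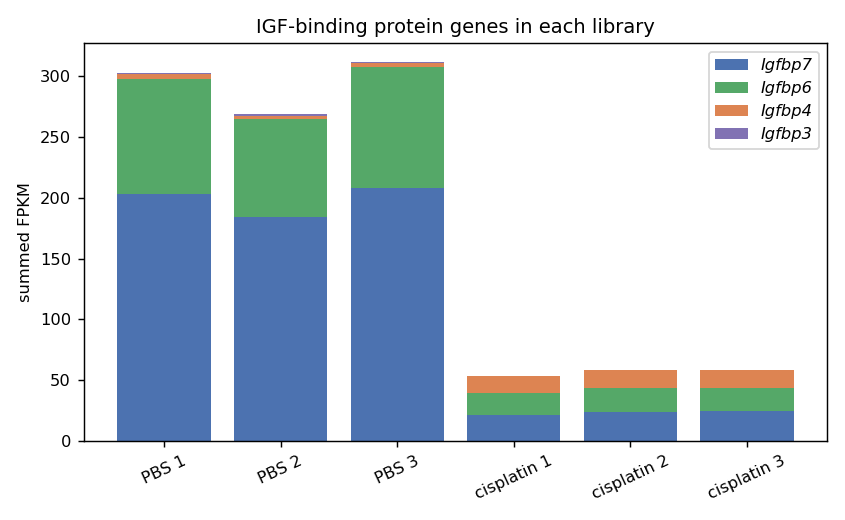
Summed FPKM (bars from 0) of Igfbp7, Igfbp6, Igfbp4 and Igfbp3 in each of the 6 libraries. The PBS bars reached 269 to 311 and the cisplatin bars 53.4 to 58.8, with the Igfbp4 part at 25.1% of the cisplatin bars on average.

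Promoter windows of the 3 called genes are shown because 2 fell and 1 rose, from 250 bases before to 50 after the RefSeq start on GRCm38.p6. Capitals mark matches, on either strand, to 5 motifs. These were the TATA box, searched as TATAAA, and the GC box, searched as GGGCGG. The AP-1 site was searched as TGANTCA, the core of interferon regulatory factor sites as AANNGAAA, where N is any base, and the TEAD site as GGAATG. Igfbp7 at chr5:77407996-77408295 and Igfbp6 at chr15:102143936-102144235 lie on the minus and plus strands, and Igfbp4 at chr11:99040994-99041293 on the plus strand.
Igfbp7: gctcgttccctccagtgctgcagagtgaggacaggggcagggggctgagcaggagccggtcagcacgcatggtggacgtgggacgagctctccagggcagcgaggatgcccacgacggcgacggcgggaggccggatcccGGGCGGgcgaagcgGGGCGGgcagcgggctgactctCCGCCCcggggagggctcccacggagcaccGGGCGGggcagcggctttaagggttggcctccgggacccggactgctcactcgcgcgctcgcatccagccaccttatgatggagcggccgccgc
Igfbp6: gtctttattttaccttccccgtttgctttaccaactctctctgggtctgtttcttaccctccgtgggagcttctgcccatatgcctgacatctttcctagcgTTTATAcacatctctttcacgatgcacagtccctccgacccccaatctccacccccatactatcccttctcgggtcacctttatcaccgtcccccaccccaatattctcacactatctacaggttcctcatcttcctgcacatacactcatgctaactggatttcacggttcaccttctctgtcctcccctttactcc
Igfbp4: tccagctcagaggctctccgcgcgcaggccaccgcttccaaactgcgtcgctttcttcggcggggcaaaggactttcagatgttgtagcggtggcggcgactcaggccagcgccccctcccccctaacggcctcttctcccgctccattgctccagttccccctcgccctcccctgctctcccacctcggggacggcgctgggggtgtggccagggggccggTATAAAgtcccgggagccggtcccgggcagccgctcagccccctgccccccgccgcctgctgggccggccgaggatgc

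The Igfbp7 window was rich in CpG, with 33 CpG dinucleotides and 73.3% GC, and held 4 GC boxes, a motif found in 35.7% of 32841 RefSeq windows of this length. The Igfbp4 window also had much CpG (27, with 71.3% GC) but no GC box match, and a TATA box whose first base lay at -28, where -1 is the base before the start. TATAAA was found in 13.6% of all windows. The Igfbp6 window had 8 CpG and 49.7% GC, against medians of 7 and 52.7% over all windows, and a match to TATAAA on the opposite strand at -148. The start of Igfbp6 in the table lies 176 bases downstream of that RefSeq start, so its window may not be the promoter used here. None of the 3 windows matched the AP-1 motif (7.81% of all windows), the interferon regulatory factor core (23.9%) or the TEAD motif (14.7%). Among the other members, windows of Igf1 and Igfbp2 matched the AP-1 motif, one of Igf1 the interferon regulatory factor core and one of Igfbp5 the TEAD motif. Windows of Igf1r, Igf2r and Igfbp2 held 2, 3 and 3 GC boxes, and those of Igf1r, Igf2r and Igfbp3 had 48, 34 and 37 CpG.

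The rest of the pathway was examined through 62 further genes in 8 lists by role. Of these 43 were tested, with 1 called higher and 3 lower, and 11 higher and 20 lower at the adjusted p alone. The called genes were 9.30% of those tested, beside 15.9% over all genes, and the genes passing the adjusted p alone were 72.1%, beside 68.0%. These differences were not tested. The median log2 fold change of the 43 was -0.12, against -0.0011 for all tested genes. With libraries scaled to the Y-linked genes, 0 of the 43 were called higher and 21 lower, beside 85 and 5181 of all tested genes. Among the other ligands, receptors and carriers only the insulin receptor gene Insr reached the filter, and its level was 8.04 ± 0.40 FPKM with PBS and 5.05 ± 0.27 FPKM with cisplatin (SD, n = 3 each), a log2 fold change of -0.58 (limma adjusted p = 0.000128). Of 7 genes for IGFBP proteases and their inhibitors 2 were tested and both were lower, of which Stc2 did not hold 1 FPKM in every cisplatin library. Htra1, a secreted serine protease, was 5.32-fold lower, at 79.4 ± 2.37 FPKM with PBS and 14.9 ± 0.68 FPKM with cisplatin (SD, n = 3 each, with limma log2 fold change -2.34, adjusted p = 8.18e-08). Pappa, which encodes PAPP-A, reached at most 0.0526 FPKM.

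Of the 4 genes of growth hormone input, all were lower at the adjusted p alone, as were 35.1% of all tested genes, and none was called in the log2(FPKM + 1) fit, while the voom fit called Ghr lower. The receptor gene Ghr passed the filter through its PBS values alone. Jak2, the kinase bound to the growth hormone receptor, was the most abundant and had a log2 fold change of -0.45 (limma adjusted p = 7.48e-05). Receptor substrates and adaptors were mixed, with 2 higher and 3 lower of 6 tested, the adaptor gene Grb2 having the highest level and a log2 fold change of 0.087 (limma adjusted p = 0.0356). Gab1 of this list was called lower in the voom fit alone, with a log2 fold change of -1.13. In the PI3K, AKT and FOXO list 4 were higher, 4 lower and 7 did not pass, of 15 tested. Pik3r2, a regulatory subunit of PI3K, fell (log2 fold change -1.06, limma adjusted p = 7.41e-06). In the MTOR list 3 were higher, 3 lower and 3 did not pass, and Eif4ebp1, a repressor of translation under MTOR control, had a log2 fold change of -0.71 (limma adjusted p = 0.000204).

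The genes of mannose 6-phosphate sorting, the other task of IGF2R, did not share 1 direction. Nagpa, whose enzyme uncovers the mannose 6-phosphate tag, rose by 1.34 on the log2 scale (limma adjusted p = 2.67e-06), with 8.49 ± 0.25 FPKM in PBS and 23.0 ± 1.83 FPKM in cisplatin libraries (SD, n = 3 each). With libraries scaled to the Y-linked genes, the log2 fold change of Nagpa was 0.41, short of the threshold. Of the 4 genes in this list 2 were higher, 1 was lower and 1 did not pass at the adjusted p alone. The genes for IGF2 mRNA-binding proteins, RNA-binding proteins of cytoplasmic granules, held 2 tested members, both lower. Igf2bp1 passed the filter through its PBS values alone, and Igf2bp3, too low to be tested, overlapped between groups. Igf2bp2 had 19.0 ± 0.86 FPKM in PBS and 5.79 ± 0.25 FPKM in cisplatin libraries (SD, n = 3 each), a log2 fold change of -1.56 (limma adjusted p = 5.97e-07).

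**Figure D4:**
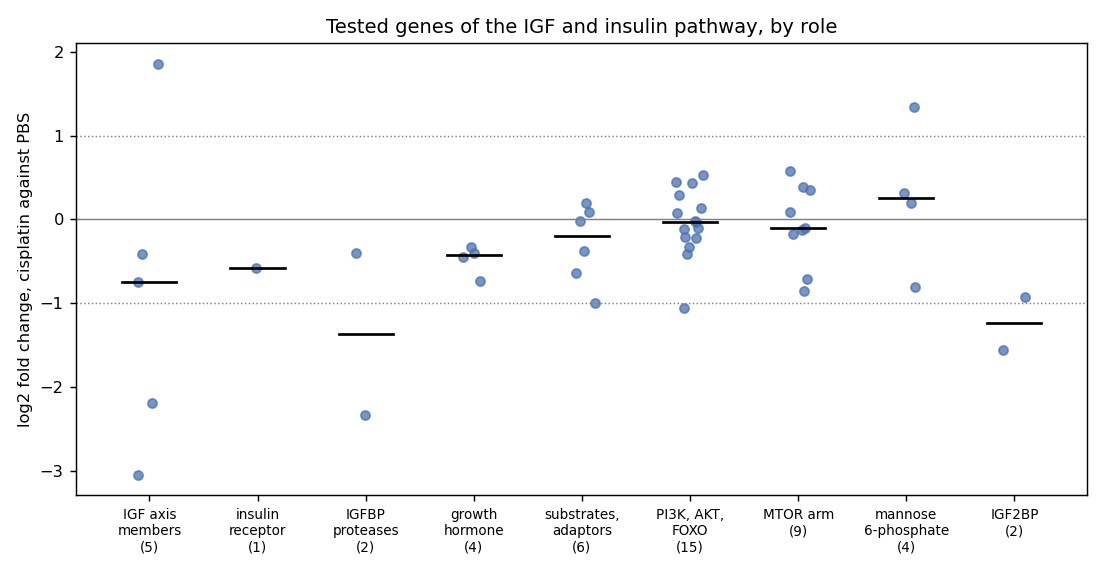
Log2 fold change, cisplatin against PBS, of each tested gene (points) with list medians (black lines), and the number of tested genes under each name. Dotted lines mark a log2 fold change of 1 in either direction. Most signalling genes lay within these lines, and outside them were Igfbp4, Igfbp6, Igfbp7, Htra1, Pik3r2, Nagpa and Igf2bp2.

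The genes whose levels over the 6 libraries were closest to those of Igfbp7, by Euclidean distance on log2(FPKM + 1), were Gm26809 (distance 0.35), the malic enzyme gene Me1 (0.51) and AW112010 (0.57). For Igfbp4 they were the iron exporter gene Slc40a1 (distance 0.27), the lysosomal channel gene Mcoln2 (0.33) and Olfm1 (0.39). This likeness covers level and group difference together over 6 libraries of 2 groups.

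Other cell type markers differed between the groups beside these results. Of 9 fibroblast and stromal markers 3 were tested, 2 lower and 1 higher, with Dcn, a matrix proteoglycan gene, at 54.1 ± 2.62 FPKM with PBS and 16.2 ± 0.84 FPKM with cisplatin (SD, n = 3 each). The summed level of the 9, most of it Dcn, was 58.7 to 62.6 FPKM with PBS and 21.8 to 24.4 FPKM with cisplatin. Of the 9, 4 had a mean under 1 FPKM in both groups. The lymphocyte list was higher in 4 of 4 tested genes (summed level 110.5 to 118 against 264 to 270.1 FPKM, its most abundant gene Cd79a having a log2 fold change of 1.19) and the granulocyte list in 7 of 8 (4595 to 4750 against 8237 to 8504 FPKM, its most abundant gene S100a9 having 0.75, and Ly6g not passing). The endothelial list was higher in 3 of 4 and lower in 1 (15.9 to 16.6 against 22.9 to 24.5 FPKM, its most abundant gene Pecam1 having a log2 fold change of 0.66), and the erythroid and megakaryocyte list higher in 2 of 4 (64.7 to 66.5 against 73.2 to 81.1 FPKM, the 2 being Itga2b and Gata1, while its most abundant gene Hbb-bs did not pass with 0.14, adjusted p = 0.0838). The part of these cells in the changes of the IGF axis was not tested.

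**Figure D5:**
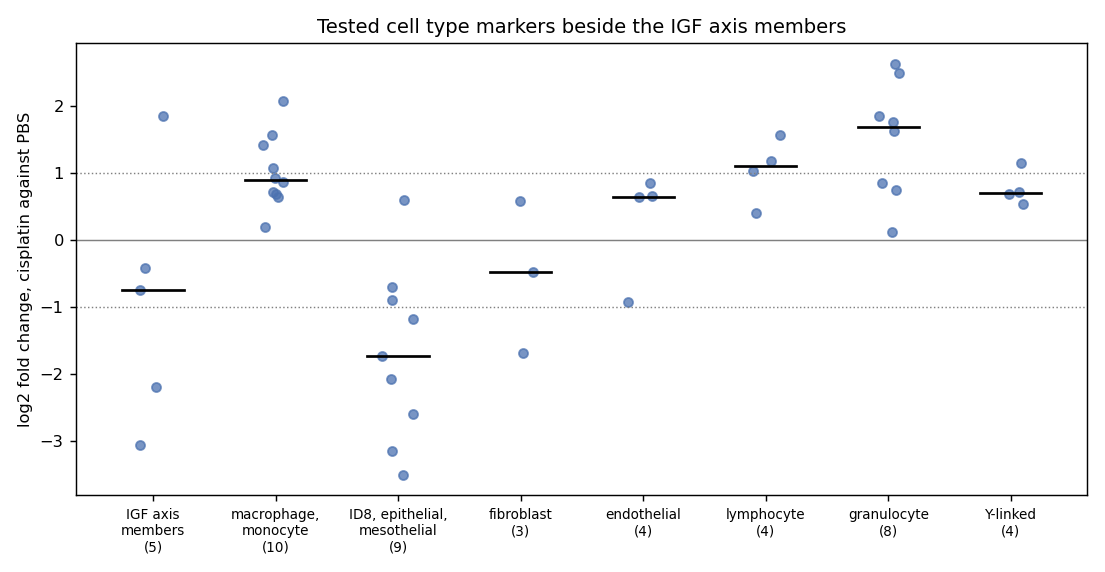
Log2 fold change, cisplatin against PBS, of each tested marker gene (points) with list medians (black lines) beside the 5 tested IGF axis genes, with the number of genes under each name. Dotted lines mark a log2 fold change of 1 in either direction. The median of the ID8, epithelial and mesothelial list was -1.72 and that of the macrophage and monocyte list 0.90.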

How the data were processed

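RNA sequencing of 6 poly-T selected libraries was analysed. Per the labels and the study's methods, the authors filtered reads, aligned them and counted them per gene. The methods name LifeScope for this, and the submitters' processing notes name fastp, HISAT2 2.0.5, featureCounts 1.5.0-p3 and mm10. The deposited unit is FPKM per gene and library. All 9 members had the same start and end in GENCODE M21 (GRCm38). FPKM times length came in whole steps (100% of values under 200 reads, within 0.1 of a read), from which reads were recovered. Median-of-ratios factors of the FPKM were equal in all libraries, so the values already carry that scaling. Genes with at least 1 FPKM in at least 3 libraries were fitted as log2(FPKM + 1) with the group as the only term (limma 3.58.1, R 4.3.3, eBayes with trend, Benjamini-Hochberg over 13441 genes). Fold changes on this scale understate those of low genes. Fold values without log2 are ratios of mean FPKM.

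The members and lists were chosen with earlier results of these data known. Named beside the members were all called pathway genes, the most abundant tested gene of each pathway list without a call and of each marker list, and the 3 nearest genes to the largest rise and fall. Igfbp1, Igf2, Pappa, Airn, the other overlapping genes, Cdh1, Ddx3y, Mertk, Ly6g, Itga2b, Gata1, Stc2, Ghr, Gab1, Igf2bp1 and Igf2bp3 were named in addition, after their values were seen. Replicate numbers did not pair the libraries (correlations of deviations from group means -0.10, -0.086 and -0.024). The procedure was tested on simulated data.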

Additional observations from a re-analysis of the deposited data

How the results depend on the processing

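The 5 tested genes kept their direction under all 18 alternative fits, with log2 fold changes from -4.02 to -2.99 for Igfbp7, -3.16 to -2.13 for Igfbp6, 0.998 to 2.23 for Igfbp4, -1.61 to -0.63 for Igf1r and -1.40 to -0.34 for Igf2r. When libraries were scaled to the 4 Y-linked genes, the median log2 fold change over tested genes was -0.83, with 0 members called higher and 4 lower. It also gave 0 other pathway genes higher and 21 lower, 85 of all genes higher and 5181 lower, and a log2 ratio of -3.37 for the summed binding protein level in place of -2.37. The cause was not tested. Quantile normalisation moved the median to 0.10. Called genes were higher in 29.3% of cases in the reported fit, 1.61% with the Y-linked scaling, 39.3% with quantile normalisation, 39.7% with voom and 41.0% with voom at 10 reads or more.

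Against 628 genes called higher, a pseudocount of 0.1 gave 973 and voom on the recovered reads 1227. Each of these, and TPM rescaling, gave 6 other pathway genes lower in place of 3. The voom fit at 10 reads or more, chosen after the data were seen, gave 1715 higher, 2465 lower, 2 members higher, 3 members lower and 6 other pathway genes lower, and tests more genes by construction. The adjusted p alone gave 9145 genes and 5 members. With the replicate number as a block (replicate block), 625 genes were higher and 1515 lower, with 1 member higher and 2 lower. Leaving out each library in turn gave 622 to 671 genes higher and 1513 to 1531 lower, 1 member higher and 2 lower in every case, 1 other pathway gene higher and 3 to 4 lower, and -2.43 to -2.33 for the summed level. Depth limits Igf1, Igfbp3, Igfbp5 and Igfbp2.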
